A study of Mus musculus with 54 samples.

Results

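Metabotropic glutamate receptors are the G protein-coupled receptors for glutamate, and 6 of their genes (Grm2, Grm3, Grm4, Grm5, Grm7 and Grm8) were followed here across 3 brain tissues and 6 inbred mouse strains. They were taken by symbol from the platform annotation, which gave them 9 probe sets of their own and 1 shared with Gm28111, out of 45101 probe sets and 18193 named genes.

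The samples were 54 one-colour arrays of hippocampus, striatum and brainstem from male mice, with 3 arrays per strain and tissue. The labels give strain names only and name no transgene or deletion, and each array held RNA pooled from 3 mice, killed at postnatal day 60. Per strain and tissue, 1 array held tested mice, which had undergone prepulse inhibition trials from postnatal day 50, the damping of a startle by a softer sound just before it, and 2 held untested mice. No strain's behaviour score is used here, and the strains C3H HeJ, BalbC/J, C57L/J, C57BLKS/J and C57BL10/J were set against C57BL6/J.

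Values are log2 expression per probe set as deposited, and a gene's level is that of its brightest probe set over the 54 arrays. Levels of different genes come from different probes, so each gene is compared only with itself. A gene was tested in a tissue where at least 3 of its arrays read higher than their own 40th percentile (3.12 to 3.47 over all arrays), and was called at a Benjamini-Hochberg adjusted p under 0.05 in limma's moderated test, adjusted over all genes tested. Grm3, Grm4, Grm5 and Grm7 lay above that level on all 54 arrays. Grm8 did so on 12 of 18 hippocampus, 17 of 18 striatum and 18 of 18 brainstem arrays. Grm2 did so on 18 hippocampus, 3 striatum and 1 brainstem arrays, so all 6 genes passed in hippocampus and striatum and 5 passed in brainstem.

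The tissue labels were read against marker genes. The mean log2 value of 10 hippocampal markers was 9.45 to 10.09 in hippocampus and at most 5.69 in the other tissues. That of 8 striatal markers was 12.88 to 13.86 in striatum and at most 7.85 elsewhere, and that of 12 brainstem markers was 7.22 to 8.64 in brainstem and at most 3.60 elsewhere. 4 arrays of striatum and brainstem with the lowest means for their own tissue carry weight below: the C57L/J untested 1 and 2 and BalbC/J tested striatum arrays (-0.33, -0.89 and -0.17 from the striatal median) and the C3H HeJ untested 2 brainstem array (-1.21 from the brainstem median). This last array also had a mean of 13.39 over 11 cerebellar markers, against a median of 9.22 over the 18 brainstem arrays. Strain results of the receptors' brightest probe sets that rest on these arrays are given with and without them. Values of the second Grm7 probe set in striatum and of the gene lists are given with all arrays. In hippocampus the BalbC/J tested and first untested arrays were lowest, at -0.48 and -0.44 from the median, and the BalbC/J hippocampus calls are also given without that pair.

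The receptors fall into 3 groups by sequence and signalling. Group I, to which Grm5 belongs, couples to Gq proteins, which activate phospholipase C, release calcium and drive protein kinase C, and it sits mostly on the postsynaptic side. Group II (Grm2 and Grm3) and group III (here Grm4, Grm7 and Grm8) couple to Gi/o proteins, which lower cyclic AMP and dampen transmitter release from axon terminals. Grm3 is also made by astrocytes, and Grm7 is the receptor of the active zone that responds only to high glutamate.

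RefSeq promoter windows on the GRCm38.p6 build, from 250 bases before to 50 bases after the gene start, were held for Grm2, Grm3, Grm7 and Grm8. Grm8 had 3 listed starts and Grm7 had 2, and the most upstream was taken for each. Those of Grm2 and Grm8 are shown because these 2 genes had the widest tissue differences among the members with a window, in opposite directions between hippocampus and brainstem. The Grm2 window lies at chr9:106656060-106656359 and the Grm8 window at chr6:28135097-28135396, both on the minus strand and written 5′ to 3′ along it. Capitals mark every CG dinucleotide, a motif that reads the same on both strands.
Grm2: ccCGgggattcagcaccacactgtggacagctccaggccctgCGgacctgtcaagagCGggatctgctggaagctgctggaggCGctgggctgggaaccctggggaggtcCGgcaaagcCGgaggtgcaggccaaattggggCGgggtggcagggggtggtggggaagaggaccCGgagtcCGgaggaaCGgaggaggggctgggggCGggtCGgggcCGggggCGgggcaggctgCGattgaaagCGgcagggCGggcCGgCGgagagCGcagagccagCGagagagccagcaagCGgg
Grm8: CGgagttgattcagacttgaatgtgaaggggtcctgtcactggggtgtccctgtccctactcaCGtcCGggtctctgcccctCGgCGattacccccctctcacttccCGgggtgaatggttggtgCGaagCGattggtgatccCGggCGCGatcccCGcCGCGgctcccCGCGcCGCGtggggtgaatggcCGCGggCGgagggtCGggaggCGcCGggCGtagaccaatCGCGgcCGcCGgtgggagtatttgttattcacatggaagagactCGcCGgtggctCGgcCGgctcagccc
The Grm2 window held 22 CG dinucleotides with a GC content of 72%, and the Grm8 window 33 with 67%. The Grm3 window held 11 and the Grm7 window 10, while the median over 32851 mouse promoter windows of the same length was 7. At least 22 were found in 23.1% of those windows and at least 33 in 8.56%, so both windows shown were CG-dense although the genes' tissue patterns were opposite.

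On its brightest probe set, every one of the 6 genes differed more between tissues than between strains. The second brightest Grm7 probe set went the other way, with 1.03 between tissue means against strain ranges of 1.89 in hippocampus and 1.67 in striatum. The values that follow are those of the brightest probe sets. The widest difference between tissue means was 7.07 for Grm2, 2.37 for Grm8, 2.12 for Grm5, 1.96 for Grm4, 1.70 for Grm3 and 0.88 for Grm7, against SDs among the 3 arrays of a strain and tissue of 0.14 to 0.55. The widest range of strain means within a tissue was 2.01 for Grm2, 0.82 for Grm8, 0.48 for Grm5, 1.41 for Grm4, 0.50 for Grm3 and 0.43 for Grm7. The 2.01 of Grm2 lay in striatum, where the gene was mostly at background, and its range in hippocampus was 0.37. The 1.41 of Grm4 lay in brainstem, and without the 4 arrays of low tissue markers its range was 0.54 there and 0.67 in striatum, while that of Grm8 in striatum was 1.04. Between hippocampus and striatum 5 of 6 genes were called (2 higher and 3 lower in hippocampus), between hippocampus and brainstem 6 of 6 (4 higher and 2 lower), and between striatum and brainstem 4 of 6 (3 higher and 1 lower). Of all 13199 genes tested, 87.1% were called in the first comparison (63.3% higher, 23.8% lower), 85.5% in the second (40.5% higher, 45.0% lower) and 89.2% in the third (29.1% higher, 60.2% lower), so a count of calls says little here and size is the better measure. The median absolute difference of the 6 genes was 0.88, 1.94 and 1.04, beside 0.43, 0.46 and 0.64 over all genes. These counts and medians include Grm2, which was mostly at background outside hippocampus. The 18 arrays of each tissue did not overlap for 4, 5 and 3 of the 6 genes, beside 34.9%, 40.0% and 46.7% of all genes. The median difference of all genes was 0.24 for hippocampus minus striatum, -0.01 for hippocampus minus brainstem and -0.31 for striatum minus brainstem, which sets the scale for the smaller differences below. That split moved with scaling: quantile normalization gave 42.5% higher and 43.6% lower, 37.0% and 48.3%, and 41.1% and 50.4%, and centred arrays gave 34.4% and 51.6%, 33.9% and 53.6%, and 42.9% and 48.1%. Arrays of different tissues shared mice, and the tissues may have been normalized apart. The p-values between tissues, and the intervals for testing over the tissues, are therefore not exact. In whole tissue, fewer cells of a type and less RNA per cell cannot be told apart.

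**Figure D1:**
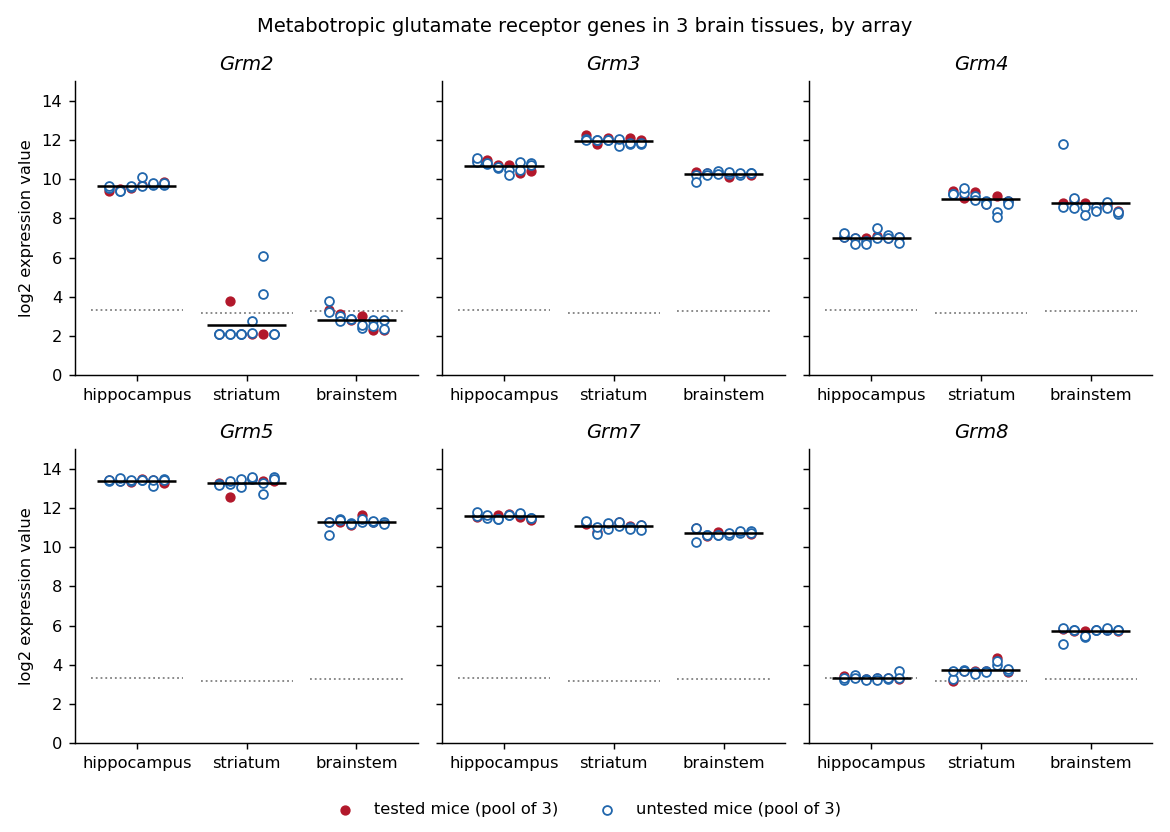
Log2 expression value (y axis) of each receptor gene on every array, by tissue (x axis). Within a tissue points run by strain from C3H HeJ on the left to C57BL6/J on the right, filled for tested and open for untested pools of 3 mice. The black line is the mean of 18 arrays and the dotted line the mean 40th percentile of the arrays. Grm2 is high in hippocampus and mostly under the dotted line elsewhere, Grm8 is highest in brainstem, and 1 Grm4 brainstem array stands at 11.82.

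Grm5, a group I receptor, had its lowest level in brainstem. It averaged 13.38 ± 0.09 in hippocampus, 13.27 ± 0.28 in striatum and 11.26 ± 0.19 in brainstem (SD, n = 18 arrays each). The lowest, median and highest values were 13.10, 13.39 and 13.52 in hippocampus, 12.53, 13.32 and 13.57 in striatum, and 10.62, 11.27 and 11.61 in brainstem. Both forebrain tissues lay above every brainstem array. Grm5 was 2.12 ± 0.06 (SE) higher in hippocampus than in brainstem (adjusted p = 2.01e-28) and 2.01 ± 0.06 higher in striatum than in brainstem (adjusted p = 8.77e-28), each in 6 of 6 strains. Hippocampus and striatum overlapped, and their difference of 0.11 (95% interval -0.01 to 0.24, adjusted p = 0.0793) was not called. Its sign turned with the scaling, to -0.13 (adjusted p = 0.0627) under quantile normalization and -0.25 (adjusted p = 4.42e-04) with arrays centred on their medians. The second Grm5 probe set read 11.70, 12.49 and 9.33 in hippocampus, striatum and brainstem. It also placed brainstem last, but set striatum above hippocampus, with a hippocampus minus striatum difference of -0.79 ± 0.07 (adjusted p = 8.73e-13). The order of the 2 forebrain tissues therefore differed between the gene's probe sets.

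Grm2 was a hippocampal gene in these samples. It averaged 9.65 ± 0.18 in hippocampus (9.39 to 10.10, median 9.65), 2.58 ± 1.07 in striatum (2.09 to 6.11, median 2.12) and 2.84 ± 0.39 in brainstem (2.31 to 3.78, median 2.84). No hippocampus array overlapped either other tissue. The measured difference was 7.07 ± 0.18 from striatum and 6.82 ± 0.18 from brainstem, in 6 of 6 strains each. Outside hippocampus Grm2 passed the filter only in striatum, on 3 arrays that all had low striatal markers. It entered this comparison largely through the tissue where it is high, so no p-value is given for it. Most values outside hippocampus lay under the 40th percentile and are read as not told apart from background, so the fold is as measured and not a ratio of 2 levels. Striatum and brainstem are therefore not set against each other. The probe set shared with Gm28111 stayed between 2.60 and 3.12 and was above the 40th percentile on 0 arrays, so it was not read as Grm2.

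Grm3, the other group II receptor, was highest in striatum. It averaged 10.69 ± 0.24 in hippocampus (10.23 to 11.05, median 10.73), 11.95 ± 0.13 in striatum (11.69 to 12.24, median 11.98) and 10.25 ± 0.13 in brainstem (9.84 to 10.43, median 10.29). Every striatum array exceeded every array of the other tissues, whereas hippocampus and brainstem overlapped. Grm3 was lower in hippocampus than in striatum (-1.26 ± 0.05, adjusted p = 7.06e-24) and was 0.44 ± 0.05 higher in hippocampus than in brainstem (adjusted p = 2.60e-10). It was 1.70 ± 0.05 higher in striatum than in brainstem (adjusted p = 1.93e-28), and all 3 directions held in 6 of 6 strains. The mean of 8 astrocyte markers ran the other way, with medians of 12.29 (hippocampus), 11.59 (striatum) and 12.61 (brainstem), and its part in the Grm3 values was not tested.

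Grm4, a group III receptor, was lowest in hippocampus. It averaged 7.02 ± 0.20 in hippocampus (6.70 to 7.53, median 7.02), 8.97 ± 0.38 in striatum (8.06 to 9.52, median 8.98) and 8.76 ± 0.80 in brainstem (8.19 to 11.82, median 8.57). The hippocampus arrays lay below all arrays of the other tissues. Grm4 was lower in hippocampus than in striatum (-1.96 ± 0.16, adjusted p = 3.10e-14) and than in brainstem (-1.75 ± 0.16, adjusted p = 7.17e-13). Striatum and brainstem were not called as different (0.21 ± 0.16, adjusted p = 0.206). They were called, with striatum 0.51 ± 0.06 higher (adjusted p = 2.63e-09), without the 4 arrays of low tissue markers, beside 89.3% of all genes. They were also called under quantile normalization (0.39, adjusted p = 0.0207) and with centred arrays (0.46, adjusted p = 0.0063).

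Grm7, the most even of the 6 across tissues, averaged 11.57 ± 0.11 in hippocampus (11.39 to 11.78, median 11.56), 11.08 ± 0.19 in striatum (10.67 to 11.33, median 11.10) and 10.69 ± 0.16 in brainstem (10.26 to 10.99, median 10.67). Hippocampus did not overlap the other tissues, which overlapped each other. It was 0.49 ± 0.05 higher in hippocampus than in striatum (adjusted p = 3.67e-12), 0.88 ± 0.05 higher in hippocampus than in brainstem (adjusted p = 1.40e-19) and 0.38 ± 0.05 higher in striatum than in brainstem (adjusted p = 1.61e-09), in 6 of 6 strains each. The first of these was 0.25 under quantile normalization and 0.13 with centred arrays (adjusted p = 0.0154). The dimmer Grm7 probe sets gave another picture. The second one averaged 3.99 (hippocampus), 4.25 (striatum) and 3.22 (brainstem). The third was above the 40th percentile on 18 of 18 striatum arrays (4.78 to 5.44) and on 0 of 18 in hippocampus (3.03 to 3.19) and in brainstem (2.66 to 2.80). The second was lower in hippocampus than in striatum (-0.26 ± 0.11, adjusted p = 0.0231, beside 86.9% of 24548 probe sets called), opposite to the brightest. No size is given for the third, which was at background in hippocampus and passed the filter through striatum.

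Grm8, a presynaptic group III receptor, was a brainstem gene among these tissues. It averaged 3.33 ± 0.11 in hippocampus (3.21 to 3.69, median 3.31), 3.71 ± 0.28 in striatum (3.17 to 4.37, median 3.69) and 5.71 ± 0.20 in brainstem (5.07 to 5.86, median 5.77). All brainstem arrays lay above all others, while hippocampus and striatum overlapped near the 40th percentile. It was lower in hippocampus than in brainstem (-2.37 ± 0.05, adjusted p = 1.35e-32) and lower in striatum than in brainstem (-1.99 ± 0.05, adjusted p = 3.28e-30). Hippocampus was below striatum (-0.38 ± 0.05, adjusted p = 1.73e-08), and each direction was seen in 6 of 6 strains, the last at -0.04 in C3H HeJ and -0.89 in C57L/J.

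In the 6-strain comparison 1 of 6 receptors was called in hippocampus, beside 31.2% of 12315 genes, 2 of 6 in striatum, beside 26.2% of 12320, and 0 of 5 in brainstem, beside 23.0% of 12484. The median range of strain means over the receptors was 0.28 (hippocampus), 0.64 (striatum) and 0.25 (brainstem), beside 0.27, 0.36 and 0.30 over all genes. Without the 4 arrays of low tissue markers it was 0.38 beside 0.35 in striatum, where Grm2 no longer passed the filter, and 0.29 beside 0.27 in brainstem. At an unadjusted p under 0.05 in limma the receptors numbered 2, 3 and 0 in that order, beside 42.6%, 39.8% and 36.9% of all genes. The called genes were Grm2 in hippocampus and Grm4 and Grm8 in striatum.

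**Figure D2:**
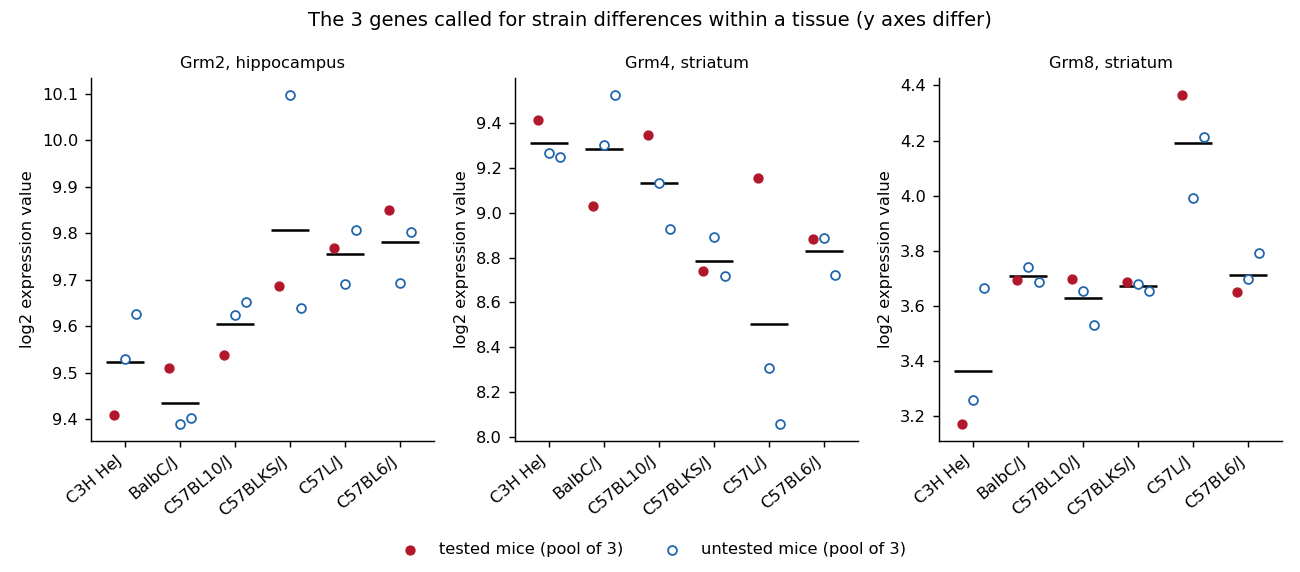
Log2 expression value (y axis) by strain (x axis) for the 3 receptor genes called in a 6-strain comparison. Points are arrays, filled for tested and open for untested pools of 3 mice, and lines are means of 3 arrays. Grm2 in hippocampus spans 0.37 between strain means, Grm4 in striatum 0.80 and Grm8 in striatum 0.82.

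Grm2 in hippocampus was lowest in BalbC/J. The values of the tested, first untested and second untested array were 9.41, 9.53 and 9.63 in C3H HeJ, 9.51, 9.39 and 9.40 in BalbC/J, and 9.54, 9.63 and 9.65 in C57BL10/J. They were 9.69, 10.10 and 9.64 in C57BLKS/J, 9.77, 9.69 and 9.81 in C57L/J, and 9.85, 9.69 and 9.80 in C57BL6/J. The strains formed an upper set (C57BLKS/J, C57BL6/J and C57L/J, means 9.81, 9.78 and 9.76) and a lower set (C57BL10/J, C3H HeJ and BalbC/J, means 9.60, 9.52 and 9.43). Neighbours within each set differed by less than the larger of their SDs. The range of strain means was 0.37 (adjusted p = 0.0324). BalbC/J was below C57BL6/J (-0.35 ± 0.10, adjusted p = 0.0282), the only 1 of 6 receptors called in BalbC/J hippocampus, beside 15.1% of all genes. C3H HeJ, at -0.26 ± 0.10 from C57BL6/J (adjusted p = 0.089), was not called. The mean of the 10 hippocampal markers minus its tissue median was -0.48, -0.44 and -0.21 on the BalbC/J arrays, and 0.16, 0.05 and 0.16 on the C57BL6/J arrays. Without the BalbC/J tested and first untested arrays, which leaves 1 BalbC/J array on the spread of the other strains, the BalbC/J difference was -0.40 ± 0.15 (adjusted p = 0.168) and the 6-strain range 0.43 (adjusted p = 0.11), neither called, beside 5.69% and 21.3% of all genes. Leaving out 1 array at a time, the BalbC/J call was kept on 14 of 18 occasions (-0.41 to -0.29, adjusted p up to 0.109). It was lost with arrays centred on their medians (adjusted p = 0.0757) and with untested arrays only (adjusted p = 0.113). Leaving out 1 array at a time, the 6-strain call was lost on 7 of 18 occasions (adjusted p up to 0.0867). It was also lost with arrays centred on their medians (adjusted p = 0.0739) and with untested arrays only (adjusted p = 0.118), at ranges of 0.39 and 0.47.

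Grm3 in hippocampus, at a range of 0.50, was not called (adjusted p = 0.0724). It read 11.00, 10.88 and 11.05 in C3H HeJ, against 10.44, 10.80 and 10.72 in C57BL6/J, and C57BLKS/J was lowest at 10.72, 10.47 and 10.23.

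Grm4 in striatum had higher means in C3H HeJ, BalbC/J and C57BL10/J than in C57BL6/J. Its tested, first untested and second untested arrays read 9.41, 9.26 and 9.25 in C3H HeJ, 9.03, 9.30 and 9.52 in BalbC/J, and 9.34, 9.13 and 8.93 in C57BL10/J. They read 8.74, 8.89 and 8.72 in C57BLKS/J, 9.15, 8.31 and 8.06 in C57L/J, and 8.88, 8.89 and 8.72 in C57BL6/J. C3H HeJ, BalbC/J and C57BL10/J had means of 9.31, 9.28 and 9.13, against 8.83 in C57BL6/J. The lowest C57BL10/J array, at 8.93, was close to the highest C57BL6/J array, at 8.89. How many of all genes separate strains this way was not counted. The 2 low C57L/J values came from the arrays whose striatal marker means were -0.33 and -0.89 from the tissue median, and the tested C57L/J array, at 0.08 over it, stood with the upper strains. The 6-strain range was 0.80 (adjusted p = 0.0354). Without the C57L/J untested 1 array it was 0.73 (adjusted p = 0.0964) and without C57L/J untested 2 it was 0.60 (adjusted p = 0.0687). The call was lost in 13 of the 18 omissions of a single array. With the 3 striatum arrays of low markers left out together it was called at 0.67 (adjusted p = 0.00564, beside 23.5% of all genes), a range between other strains. It then ran from BalbC/J, 0.62 above C57BL6/J, to C57BLKS/J, at -0.05 from it, whereas with all arrays it ran from C3H HeJ to C57L/J, which was 0.24 above C57BL6/J without its untested arrays. No strain was called against C57BL6/J for Grm4 in the full striatum data, where C3H HeJ was 0.48 ± 0.20 higher (adjusted p = 0.126) and BalbC/J 0.45 ± 0.20 higher (adjusted p = 0.238). Without those 3 arrays both were called, C3H HeJ at 0.48 ± 0.10 (adjusted p = 0.00746) and BalbC/J at 0.62 ± 0.12 (adjusted p = 0.008), beside 21.9% and 6.82% of all genes.

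Grm8 in striatum stood apart in C57L/J. Its arrays, in the same order, read 3.17, 3.26 and 3.67 in C3H HeJ, 3.70, 3.74 and 3.69 in BalbC/J, and 3.70, 3.66 and 3.53 in C57BL10/J. They read 3.69, 3.68 and 3.66 in C57BLKS/J, 4.37, 3.99 and 4.21 in C57L/J, and 3.65, 3.70 and 3.79 in C57BL6/J. All 3 C57L/J arrays exceeded all 15 others, including the tested one, whose striatal markers were not low. The share of all genes that separate a strain this way was not counted. The range was 0.82 (adjusted p = 0.00274). The 40th percentile of the striatum arrays was 3.12 to 3.29, so the C3H HeJ values of 3.17 and 3.26 lay at background and part of the range is measured from there. C57L/J was 0.48 ± 0.12 above C57BL6/J (adjusted p = 0.0316), the only 1 of 6 receptors called in that comparison, beside 4.30% of all genes. C3H HeJ was the lowest strain (-0.35 ± 0.12 from C57BL6/J, adjusted p = 0.0511), with 1 of its arrays among those of the other strains. Without the 3 arrays of low markers only the tested C57L/J array remained, its difference was 0.70 (adjusted p = 0.0671) on the spread of the other strains, and C3H HeJ was called at -0.35 ± 0.11 (adjusted p = 0.0367, beside 21.9% of all genes). Without C57L/J untested 2 alone the C57L/J difference was 0.46 ± 0.13 (adjusted p = 0.111), and it lost its call in 5 of the 18 single omissions.

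The other contrasts with C57BL6/J held no receptor call. In hippocampus 0 of 6 were called in C3H HeJ, C57BL10/J, C57BLKS/J and C57L/J, beside 18.0%, 2.25%, 5.57% and 4.39% of all genes in that order. In striatum the count was 0 of 6 in C57BLKS/J, C57BL10/J, BalbC/J and C3H HeJ, beside 2.18%, 0.536%, 7.68% and 17.6%. In brainstem the count was 0 of 5 in every strain, beside 3.28% of all genes (C57L/J), 2.74% (C57BLKS/J), 2.75% (C57BL10/J), 12.3% (BalbC/J) and 19.3% (C3H HeJ). The 95% intervals of Grm5 in hippocampus kept each strain within 0.23 of C57BL6/J in either direction. In striatum they reached -0.85 in BalbC/J and -0.77 in C57L/J.

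A single Grm4 value in C3H HeJ brainstem stood far from the rest. The gene read 8.78, 8.57 and 11.82 on its tested, first untested and second untested arrays, against 8.35, 8.24 and 8.34 in C57BL6/J brainstem. C3H HeJ was 1.41 ± 0.58 above C57BL6/J and was not called (adjusted p = 0.107), with its own arrays running from 8.57 to 11.82. The array at 11.82 was the one with cerebellar markers 4.18 over the tissue median, and all 11 of these markers were above the 40th percentile there, as on every brainstem array. Grm3, Grm5, Grm7 and Grm8 were each lowest of all 18 brainstem arrays on it, at 9.84, 10.62, 10.26 and 5.07. Without it C3H HeJ Grm4 was 0.35 ± 0.15 above C57BL6/J (adjusted p = 0.127). Also without it, 1 of 5 receptors was called for the 6 strains in brainstem, beside 37.7% of all genes. That was Grm7, with a range of 0.39 (adjusted p = 0.00146) and 0.26 ± 0.06 higher in C3H HeJ than in C57BL6/J (adjusted p = 0.00461, beside 21.5% of all genes), on values of 10.99 and 10.99 in C3H HeJ against 10.65, 10.81 and 10.72 in C57BL6/J. Grm4 was then called in BalbC/J, 0.54 ± 0.14 above C57BL6/J (adjusted p = 0.0104, beside 25.3% of all genes). BalbC/J arrays had cerebellar marker means 1.09, 1.12 and 0.16 over the brainstem median, and C57BL6/J arrays were at -0.72, -0.56 and -0.36 from it.

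Grm2 in striatum also stood apart on a few arrays. It was between 2.09 and 2.14 on 14 of 18 arrays and read 4.14 and 6.11 on C57L/J untested 1 and 2, 3.77 on BalbC/J tested and 2.79 on C57BLKS/J untested 2. The mean of 7 cortical markers lay 0.49, 1.56, 0.87 and 0.74 over the striatal median on those 4 arrays. It lay 0.66 over the median on C57BL10/J untested 1, where Grm2 stayed at 2.10, and was -0.74 from it on C57L/J tested, where Grm2 read 2.11. The C57L/J mean was 2.00 ± 0.69 above C57BL6/J (adjusted p = 0.116) and was not called. Without the C57L/J tested array it was 3.09 ± 0.50 and the 6-strain range 3.10, both called, beside 15.3% and 34.3% of all genes. Grm2 passed the striatum filter only on the 3 arrays of low striatal markers, where it was high. No p-value is therefore given for these 2 sizes. Those sizes set 2 arrays of low striatal markers against background values.

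**Figure D3:**
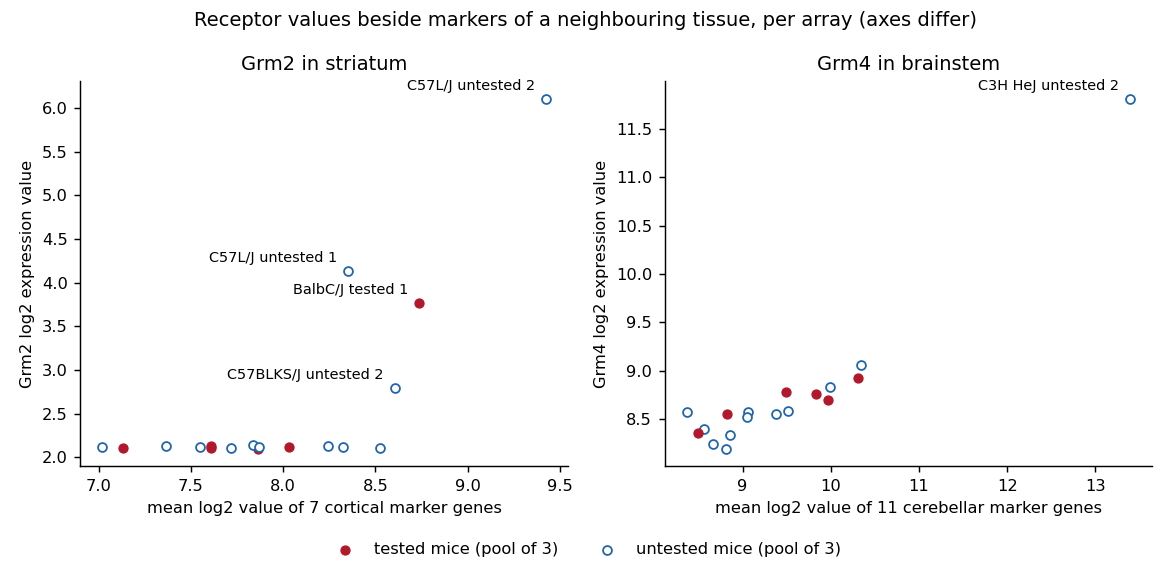
Receptor log2 value (y axes) against the mean log2 value of marker genes of an adjoining tissue (x axes) on the 18 striatum arrays (left, Grm2 and 7 cortical markers) and the 18 brainstem arrays (right, Grm4 and 11 cerebellar markers). Filled points are tested and open points untested pools of 3 mice. The Grm2 value of 6.11 and the Grm4 value of 11.82 fall on the arrays with the highest marker mean of each panel.

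Whether strain differences varied between tissues was tested with an F test over all arrays. It called 1 of 6 receptors, Grm2 (adjusted p = 0.0475), beside 17.4% of 13199 genes. Grm2 was above the 40th percentile on only 3 striatum arrays and 1 brainstem array. Its strain means nevertheless ranged by 2.01 in striatum and 0.94 in brainstem, against 0.37 in hippocampus. The call thus draws on values mostly at background and on a few striatum arrays, and shows no strain effect in those 2 tissues. The call was lost in 47 of the 54 omissions of a single array (adjusted p up to 0.0991). Without the 4 arrays of low tissue markers 3 of 6 were called, beside 24.6% of all genes, namely Grm2 (adjusted p = 0.008), with the same limit, Grm4 (adjusted p = 0.0309) and Grm8 (adjusted p = 0.00131), whose hippocampus values were near the 40th percentile. Arrays of different tissues shared mice within a strain, which this test does not take into account.

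The second Grm7 probe set showed strain differences that the brightest one did not. In hippocampus its tested, first untested and second untested arrays read 3.69, 3.41 and 3.58 in C3H HeJ, 5.98, 5.00 and 4.79 in BalbC/J, and 4.09, 3.85 and 3.67 in C57BL10/J. They read 3.54, 3.60 and 3.41 in C57BLKS/J, 3.37, 3.35 and 3.37 in C57L/J, and 4.08, 4.83 and 4.15 in C57BL6/J. The range of strain means was 1.89 (adjusted p = 9.58e-05 over 22659 probe sets, of which 32.7% were called). In striatum the means were 3.66 in C3H HeJ, 5.16 in BalbC/J, 4.71 in C57BL10/J, 3.55 in C57BLKS/J, 3.49 in C57L/J and 4.91 in C57BL6/J. The range there was 1.67 (adjusted p = 2.63e-04 over 22645 probe sets, 24.8% called). In striatum no array of C3H HeJ, C57BLKS/J or C57L/J reached any array of the other 3 strains, a split that was not counted over all probe sets.

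Against C57BL6/J in hippocampus, this probe set was lower in C3H HeJ at -0.79 ± 0.23 (adjusted p = 0.0255), in C57BLKS/J at -0.84 ± 0.23 (adjusted p = 0.0449) and in C57L/J at -0.99 ± 0.23 (adjusted p = 0.0215). It was higher in BalbC/J by 0.90 ± 0.23 (adjusted p = 0.0154). The shares of all probe sets called were 19.7%, 6.22%, 4.44% and 14.6% in those strains. Leaving out 1 array at a time, the C57BLKS/J call was kept on only 3 of 18 occasions (adjusted p up to 0.135), the C3H HeJ call on 14, and the C57L/J and BalbC/J calls on 15 each. Without C57BL6/J untested 1 the differences were -0.55 in C57BLKS/J and -0.51 in C3H HeJ. Without BalbC/J tested the BalbC/J difference was 0.55 and was not called, and without its first untested array as well it was 0.45 (adjusted p = 0.433). In striatum it was lower in C3H HeJ at -1.24 ± 0.25 (adjusted p = 0.00394), in C57BLKS/J at -1.36 ± 0.25 (adjusted p = 0.00915) and in C57L/J at -1.42 ± 0.25 (adjusted p = 0.00482), beside 17.0%, 2.06% and 3.95% of all probe sets. The C3H HeJ and C57L/J striatum calls were kept in 18 of 18 omissions of 1 array, and the C57BLKS/J call in 15. Of 7 other settings C3H HeJ was called in 7, and C57BLKS/J and C57L/J in 6 each. The 40th percentiles were 3.22 to 3.47 in hippocampus and 3.12 to 3.29 in striatum, where 16 of 18 arrays exceeded them. The low strains lay near that level, so these sizes are partly measured from background. C57BL10/J in both tissues (2.82% and 0.543% of probe sets called) and BalbC/J in striatum (7.39%) were not called on this probe set. In brainstem it passed the 40th percentile on 2 of 18 arrays, both untested BalbC/J arrays at 4.69 and 4.26, and was not tested there within the tissue. The brightest Grm7 probe set ranged by 0.20 between strains in hippocampus (adjusted p = 0.147) and by 0.43 in striatum (adjusted p = 0.0644). With BalbC/J lowest of the 6 in striatum on the brightest probe set and highest on the second, the probe sets did not rank the strains alike.

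**Figure D4:**
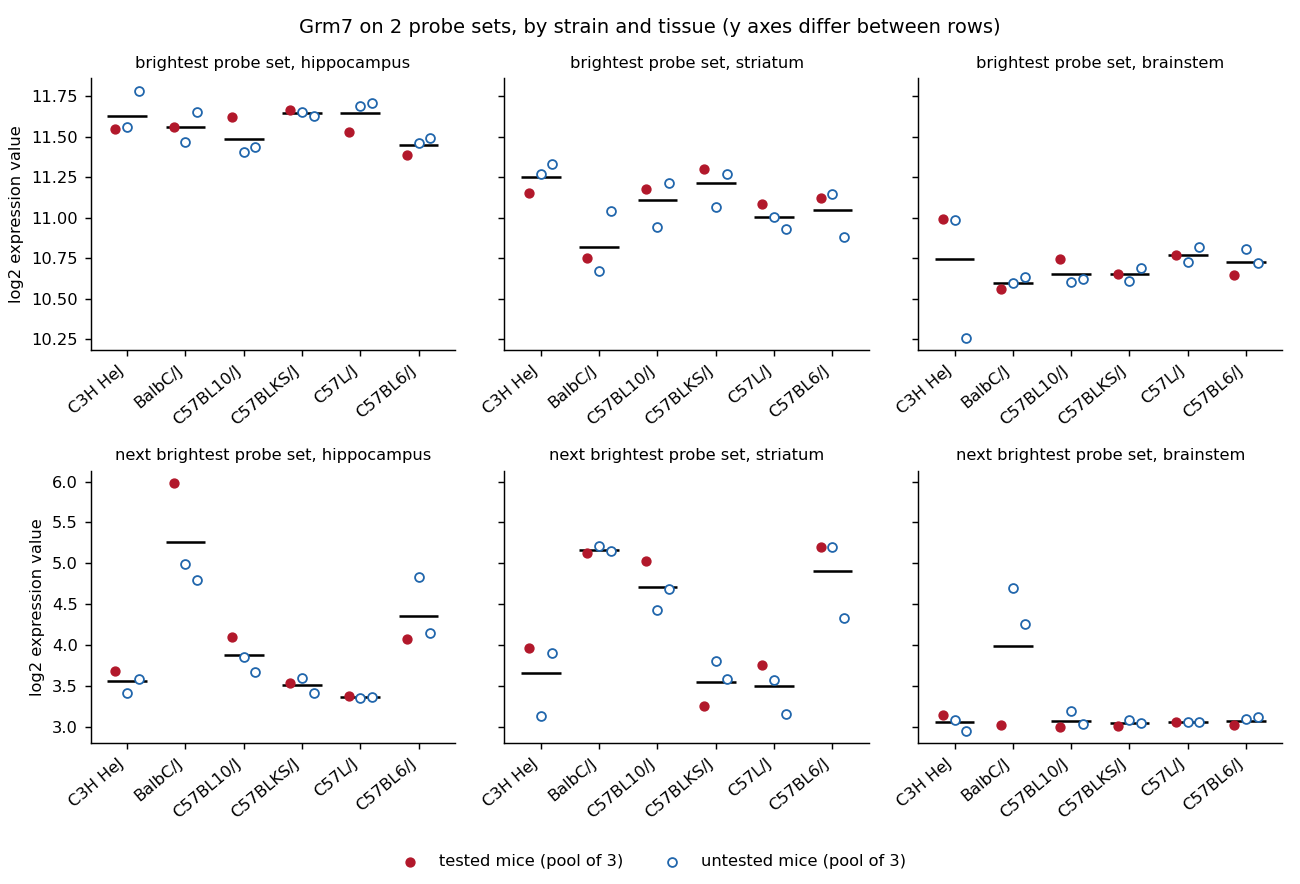
Log2 value (y axes) of the brightest (top) and second brightest (bottom) Grm7 probe set by strain (x axes) in 3 tissues. Points are arrays, filled for tested and open for untested pools of 3 mice, and lines are means of 3 arrays. On the second probe set BalbC/J, C57BL10/J and C57BL6/J stand above the other strains in striatum, and BalbC/J is highest in hippocampus.

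Prepulse testing was followed by no called change in any receptor. The count was 0 of 6 receptors for hippocampus, 0 of 6 for striatum, 0 of 5 for brainstem and 0 of 6 over the tissues, with 0% of all genes called in each. At an unadjusted p under 0.05 limma gave 488 of 12315 hippocampus genes, 467 of 12320 for striatum, 281 of 12484 for brainstem and 472 of 13199 over the tissues, and 0 receptors in each. Over the tissues, tested minus untested was -0.11 for Grm2 (95% interval -0.43 to 0.21), 0.04 for Grm3 (-0.04 to 0.13), 0.03 for Grm4 (-0.25 to 0.30), -0.01 for Grm5 (-0.12 to 0.10), 0.02 for Grm7 (-0.06 to 0.10) and 0.03 for Grm8 (-0.06 to 0.12). Grm4 in striatum averaged 9.09 in tested and 8.92 in untested arrays, a difference of 0.18 ± 0.12 (95% interval -0.09 to 0.44). Grm3 in striatum averaged 12.02 in tested and 11.91 in untested arrays (difference 0.11 ± 0.06, 95% interval -0.01 to 0.23), and the tested array was above the untested mean in 5 of 6 strains. The Grm2 value over the tissues includes striatum and brainstem, where the gene was mostly at background. Without the 4 arrays of low tissue markers Grm2 was at -0.03 ± 0.06 and Grm4 at 0.10 ± 0.05 over the tissues. Grm3 in striatum was then at 0.14 ± 0.06, and none of these was called, beside 0% of all genes.

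**Figure D5:**
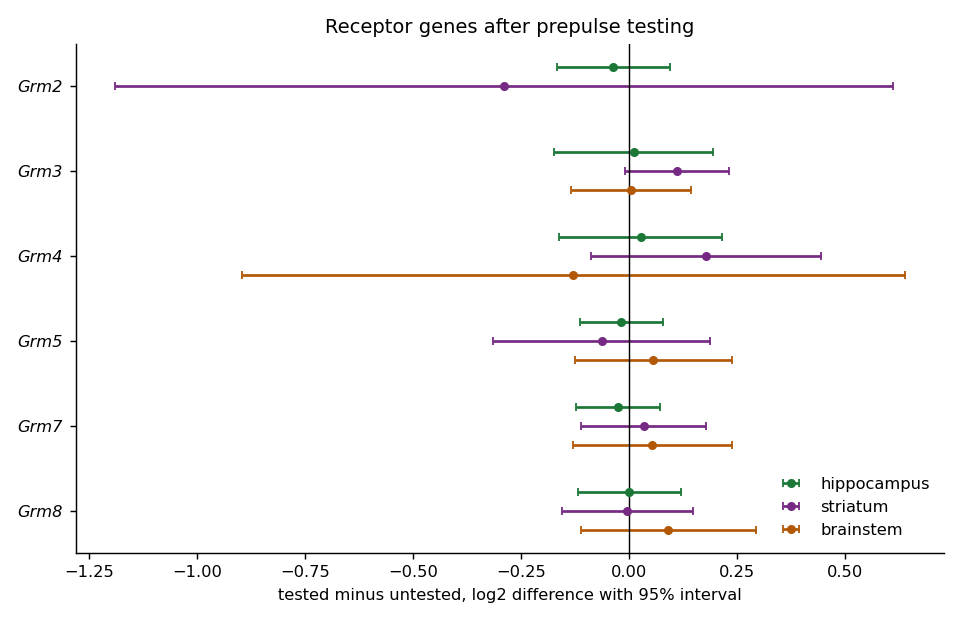
Tested minus untested log2 difference (x axis) with its 95% interval for each receptor gene (y axis) in hippocampus, striatum and brainstem, from 6 tested and 12 untested arrays per tissue. All 17 intervals include 0, and Grm2 was not tested in brainstem.

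The genes around the receptors were read from lists. Of 13 genes of Gq signalling 9 were tested, and the 6-strain comparison called 0 of 9 (hippocampus), 5 of 9 (striatum) and 0 of 9 (brainstem). Prkca, a protein kinase C activated downstream of Gq, had the smallest p, with means of 10.38 ± 0.09 in C57L/J, 9.76 ± 0.10 in BalbC/J and 10.05 ± 0.03 in C57BL6/J striatum (adjusted p = 7.14e-04). Of 15 genes of Gi/o signalling the same comparison called 7, 6 and 2 in that order of tissues. Gnb1, a G protein beta subunit, was called in all 3 tissues. It averaged 13.05 in C3H HeJ and 13.09 in BalbC/J hippocampus, against 10.93 to 11.36 in the other 4 strains, and the range was 2.16 there (adjusted p = 8.53e-06), 2.83 in striatum and 2.71 in brainstem. Rgs4, which shortens Gi/o signals, was lowest in C3H HeJ striatum at 13.02 ± 0.06, against 13.77 ± 0.12 in C57BL6/J.

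Of 21 scaffold and partner genes, 4 of 17 tested in hippocampus were called for the 6 strains, 3 of 15 in striatum and 3 of 16 for brainstem. Grk3, a kinase that desensitises receptors, averaged 11.04 ± 0.20 in C3H HeJ and 12.08 ± 0.04 in BalbC/J hippocampus, against 11.66 ± 0.09 in C57BL6/J, and ranged by 1.04 over the strains (adjusted p = 7.21e-06). Of 11 genes of glutamate supply and clearance 9 were tested, and 5, 4 and 6 of 9 were called in hippocampus, striatum and brainstem. The astrocyte transporter gene Slc1a3 was low in C57L/J, at 11.85 ± 0.10 in hippocampus, 11.67 ± 0.13 in striatum and 10.46 ± 0.20 in brainstem, against 13.64 ± 0.16, 13.15 ± 0.10 and 11.87 ± 0.04 in C57BL6/J. The vesicular transporter gene Slc17a7 was low in BalbC/J hippocampus, at 11.94 ± 0.09 against 12.91 ± 0.07 in C57BL6/J (difference -0.97 ± 0.08, adjusted p = 2.82e-07). These counts stand beside the same 31.2%, 26.2% and 23.0% of all genes, and for testing 0 genes of any list were called.

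Across tissues, hippocampus against brainstem called 8 of 9 Gq genes (7 higher, 1 lower), 12 of 15 Gi/o genes (9 higher, 3 lower), 16 of 17 scaffolds (15 higher, 1 lower) and 9 of 9 glutamate genes (5 higher, 4 lower), beside 85.5% of all genes. Homer1, whose product links Grm5 to internal calcium stores, averaged 11.61 (hippocampus), 12.63 (striatum) and 9.66 (brainstem). The related scaffold genes were ordered otherwise, with Homer2 at 11.43 (hippocampus), 8.55 (striatum) and 8.89 (brainstem), and Homer3 at 7.79 (hippocampus), under the 40th percentile in striatum and 5.19 (brainstem). Elfn1, a synaptic partner of group III receptors, averaged 7.00 (hippocampus), 3.09 (striatum) and 6.30 (brainstem). Rgs14, a regulator of Gi/o signalling, was 7.07 ± 0.05 higher in hippocampus than in brainstem (adjusted p = 5.07e-48). The median absolute difference of the tested list genes between hippocampus and brainstem was 1.09 for Gq signalling, 0.42 for Gi/o signalling, 1.27 for scaffolds and 1.10 for glutamate supply, beside 0.46 over all genes.

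The genes whose pattern was most like each receptor's were found by Pearson correlation over the 54 arrays among 11604 or 11605 other genes, as a description. The arrays share 3 tissues, so likeness in level is mostly likeness between tissues. By level the nearest were Prr36 for Grm2 (r = 0.99), Sdccag8 for Grm3 (r = 0.97), Cdc42bpg for Grm4 (r = 0.96), Ripor2 for Grm5 (r = 0.99), Stx2 for Grm7 (r = 0.94) and Esrrg for Grm8 (r = 0.98). With each tissue's mean taken off they were Hunk for Grm2 (r = 0.88), Mrpl54 for Grm3 (r = 0.69), Kcnd2 for Grm4 (r = 0.93), Scn3b for Grm5 (r = 0.72), Rgs17 for Grm7 (r = 0.68) and Rgs19 for Grm8 (r = 0.71). Without the 4 arrays of low tissue markers the last set became 0.31, 0.64, 0.68, 0.39, 0.62 and 0.57 in the same order. Among the receptors, r within tissues ran between -0.56 (Grm2 with Grm5) and 0.46 (Grm5 with Grm7), and without those 4 arrays these pairs were at 0.16 and 0.10.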

How the data were processed

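RNA of hippocampus, striatum and brainstem was measured on 54 Affymetrix mouse arrays. The authors deposited log2 values per probe set, and the submitters' processing notes name R 2.6.1, affy 1.16.0, RMA, GCRMA 2.10.0 and limma 2.12.0. The notes do not say which of RMA and GCRMA made the values. The lowest values differed by tissue (-0.20 to -0.15 in hippocampus, -0.02 to 0.03 in striatum, -0.12 to -0.08 in brainstem). Array medians were 4.52 to 4.72 in hippocampus and 4.17 to 4.31 in striatum, so tissue differences also depend on scaling. The growth protocol's list of strains leaves out C57BL10/J, which was taken from the sample labels.

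Of 45101 probe sets, 34945 had 1 gene symbol in the platform annotation, 932 several and 9160 none, and 64 were controls. Genes were taken by the probe set with the highest mean. limma 3.58.1 in R 4.3.3 (lmFit, eBayes with an intensity trend) was fitted per tissue on strain and testing, and over all arrays on strain within tissue and testing. Tests were two-sided and adjusted over all genes, and the models were tested on simulated data. The adjusted p-values throughout are from limma. Each array pools 3 mice, and the number of arrays limits precision.

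The receptors and the lists around them were chosen with earlier results of these data known. Named list genes are up to 4 per list and comparison with the smallest p among those called, and like genes are those with the highest Pearson correlation. Pool numbers recur across tissues. Deviations of same-numbered pools from their group means had median correlations of 0.01, 0.11 and -0.01 for the 3 tissue pairs, over 0.1 in 4, 10 and 2 of 18, so pools were not treated as paired. Alternatives were quantile normalization, median centring, other filters, other probe set rules, no intensity trend, fewer arrays and a replicate block. Leaving out the 3 or 4 striatum and brainstem arrays of low tissue markers together, or the 2 hippocampus arrays, was chosen after seeing the data.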

Additional observations from a re-analysis of the deposited data

Results flagged for a closer look

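The test of strain by tissue was past the threshold for Grm2, with an adjusted p of 0.0475 (limma F test over 54 arrays), but the gene was at background on most striatum and brainstem arrays, and the call was lost in 47 of 54 omissions of 1 array. The same test gave the second Grm7 probe set an adjusted p of 0.0315 over 24548 probe sets, of which 16.4% were called. That probe set was above the 40th percentile on 2 of 18 brainstem arrays, so strain differences among the other 16 arrays there could not be read.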

How the results depend on the processing

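Counts of called receptors were recomputed under each alternative. The share of all genes called also moved with the setting. For the 6 strains in brainstem it was 23.0% with all arrays and 37.7% without the C3H HeJ untested 2 array. A moved count is therefore not read as particular to the receptors. The 6-strain count in hippocampus was 1 (0 to 2 leaving out 1 array), with 2 by the mean of a gene's probe sets, 2 by the next brightest probe set, 0 with median centring and 0 without the 2 hippocampus arrays of lowest markers. In striatum it was 2 (1 to 3), with 1 under a filter at the 50th percentile and 1 with untested arrays only, and in brainstem 0 (0 to 1), with 1 without a filter. Against C57BL6/J the hippocampus count was 1 (0 to 2), with 2 by the mean, 5 by the next brightest probe set, 0 with centring, 0 with untested arrays only and 0 without those 2 arrays. The striatum count was 1 (0 to 4), with 4 by the mean, 4 by the next brightest, 2 under quantile normalization, 2 with centring, 0 at the 50th percentile, 2 with untested arrays only, 3 with arrays of the 2 strains only and 3 without the 3 arrays of low markers. The brainstem count was 0 (0 to 2), with 1 without a filter and 1 with arrays of the 2 strains only. The strain by tissue count was 1 (0 to 2), with 0 by the mean, 2 by the next brightest, 0 with centring, 0 without a filter, 0 without an intensity trend and 3 without the 4 arrays of low markers. Tissue counts were 5 (5 to 6), 6 (6 to 6) and 4 (4 to 5), and testing counts 0 throughout. The Grm7 difference of hippocampus minus striatum reversed to -0.59 by the mean of its probe sets and -0.26 by the next brightest. The causes were not tested, beyond the use of other probe sets. With the replicate block every receptor count was the same: 1, 2 and 0 for 6 strains, 1, 1 and 0 against C57BL6/J, 5, 6 and 4 between tissues, 0 for testing and 1 for strain by tissue. Within a tissue the block takes the place of testing, so no blocked testing fit was made there. With 3 arrays per strain and tissue, Grm2 outside hippocampus and Grm8 in forebrain lie near the background level, which limits what can be read there.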
